A study of Mus musculus with 16 samples.

Results

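Microglia, the resident macrophages of the brain, were compared between mice that carried both a conditional knockout of Rack1 and a model of Alzheimer's disease (AD CKO) and mice that carried neither (WT). This comparison gives the joint difference of the 2 changes. It used 4 of the series' 16 RNA-seq libraries, 2 per group, chosen by their cell type and genotype labels and not by any measured value. The labelled genotypes are Rack1 CKO AD and WT. The other 4 microglial libraries entered the same fit, 2 of the knockout without the model (CKO, labelled Rack1 CKO) and 2 of the model without the knockout (AD WT, labelled WT AD). Per the series' design text the knockout was in microglia. The labels give neither the Alzheimer's model, nor the driver of the conditional deletion, nor the age and sex of the mice, nor how the cells were isolated. Whether replicate 1 and replicate 2 were taken from separate mice is also not stated, so standard errors and p-values measure only the spread between these libraries, which may be technical.

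Rack1 encodes a scaffold protein that sits on the small ribosomal subunit and also binds protein kinase C, Src-family kinases and type I interferon receptor components. Microglia at rest express a set of homeostatic genes such as P2ry12 and Tmem119. Around amyloid plaques they lower these and raise the disease-associated genes, among them Apoe, Trem2, Lpl and Spp1, which serve lipid uptake, phagocytosis and lysosomal breakdown. Type I interferon signalling raises a further set, which includes antiviral genes and MHC class I.

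Levels are in CPM, read counts scaled to a common library size with TMM factors, which compare libraries for 1 gene and not genes with each other. Differences are log2 of AD CKO over WT with their standard error (SE), from edgeR's quasi-likelihood test over all 8 microglial libraries. A gene is said to have risen or fallen at a Benjamini-Hochberg adjusted p under 0.05 over the 17318 genes tested.

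Rack1 itself, on mm10 chromosome 11 from 48800332 to 48806434, had 47.2 and 47.8 CPM in AD CKO microglia, 40.4 and 42.0 CPM in CKO, 113 and 115 CPM in AD WT, and 98.1 and 95.2 CPM in WT. All 4 libraries labelled as knockout lay below all 4 others. Rack1 fell by 1.02 on the log2 scale against WT (SE 0.06, edgeR adjusted p = 1.07e-13), so transcript remained in the knockout libraries. Library totals were 29955135 and 33933068 in AD CKO and 30482559 and 30236747 in WT. Of 10 markers of microglia 8 fell, and their summed level was 30140 and 31060 CPM in AD CKO, against 47480 and 49340 CPM in WT. In bulk RNA of this kind, fewer cells of a type and less RNA per cell cannot be told apart. App, the amyloid precursor gene, did not pass the test, at 270 and 265 CPM in AD CKO against 272.5 and 283.5 CPM in WT (log2 difference -0.06, SE 0.04, edgeR adjusted p = 0.363).

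The groups differed in transcripts of the sex chromosomes. Ddx3y, a Y-linked helicase gene, had 62.0 and 60.3 CPM in AD CKO, 0.0324 and 0.314 CPM in CKO, 30.7 and 27.7 CPM in AD WT and 7.64 and 5.48 CPM in WT. Xist, the RNA that silences 1 X chromosome in females, ran the other way, with 84.7 and 79.3 CPM in AD CKO, 259 and 237 CPM in CKO, 143 and 156 CPM in AD WT and 191 and 188.5 CPM in WT. Both kinds of transcript were present in the AD CKO, AD WT and WT libraries. A difference in the share of male cells between the groups cannot be told apart from the genotype for any gene that depends on sex.

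Of the 17318 genes, 3161 rose (18.3%) and 2712 fell (15.7%) in AD CKO microglia against WT. At least 2-fold changes were fewer, with 707 genes higher (4.08%) and 682 lower (3.94%). The 2 AD CKO values lay wholly above or wholly below the 2 WT values for 11074 genes (63.9%), so non-overlap alone was common. The median difference over all genes was -0.0037 on the log2 scale. Leaving the sex chromosomes aside, 3064 of 16796 genes rose and 2629 fell.

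Among called genes that averaged 5 CPM or more across the AD CKO and WT libraries, with groups that did not overlap and no clone-like name, the largest rise was that of Cxcl13, the chemokine that attracts B cells, on chromosome 5 from 95956951 to 95961068. It had 349 and 351 CPM in AD CKO, 553 and 553 CPM in CKO, 1.33 and 1.24 CPM in AD WT, and 0.677 and 0.925 CPM in WT. Both libraries of each knockout group were high and every library with no knockout was near 1 CPM. The rise was 436-fold (log2 8.77, SE 0.16, edgeR adjusted p = 2.29e-31), and Cxcl13 was lower in AD CKO than in CKO (log2 -0.66, SE 0.05, edgeR adjusted p = 9.16e-12). Gdf3, a secreted growth factor related to TGF-beta, had 39.6 and 39.9 CPM in AD CKO against 0.902 and 0.892 CPM in WT (log2 5.46, SE 0.20, edgeR adjusted p = 2.32e-21). Cdkn1a, the cell cycle inhibitor p21, had 384.5 and 416 CPM in AD CKO against 34.4 and 30.9 CPM in WT (log2 3.61, SE 0.06, edgeR adjusted p = 2.3e-22).

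Cd40, the costimulatory receptor, had 31.4 and 32.9 CPM in AD CKO, 35.2 and 38.0 CPM in CKO, 2.90 and 2.34 CPM in AD WT and 2.25 and 3.20 CPM in WT (log2 3.56, SE 0.15, edgeR adjusted p = 1.7e-17). C3, the central complement component, had 105 and 102 CPM in AD CKO, 84.0 and 86.8 CPM in CKO, 20.3 and 18.2 CPM in AD WT and 10.4 and 9.15 CPM in WT (log2 3.40, SE 0.09, edgeR adjusted p = 3.9e-22). Ms4a7, a membrane protein gene that marks border macrophages, had 133 and 130.0 CPM in AD CKO against 12.8 and 12.2 CPM in WT (log2 3.40, SE 0.07). For Cd40, C3 and Ms4a7 the knockout libraries, with or without the model, again lay above all others. The remaining large rises included Ikbke, a kinase of the interferon induction pathway, at 19.8 and 22.3 CPM against 0.515 and 0.892 CPM (log2 4.90, SE 0.26). Phlda3, a p53-induced repressor of Akt signalling, had 50.7 and 51.5 CPM in AD CKO against 1.55 and 2.77 CPM in WT (log2 4.57, SE 0.21). Inka2, an inhibitor of PAK kinases, rose by 3.77 and the retinoid X receptor gene Rxrg by 3.34 on the log2 scale. H2-M2 (4.89), Lyz1 (3.43) and Gpr31c (3.35) also rose, but each has close relatives with which reads may be shared. Ahnak2 (4.14) and the Y-linked Uty (3.34) completed the 15 largest rises under these limits.

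Under the same limits, the largest fall was that of Ptger3, the EP3 receptor for prostaglandin E2, on chromosome 3 from 157566892 to 157645888. It had 0.753 and 0.303 CPM in AD CKO, 1.46 and 1.22 CPM in CKO, 4.43 and 4.78 CPM in AD WT, and 15.5 and 14.9 CPM in WT. The 4 groups did not overlap, AD CKO was the lowest and WT the highest. The level in WT was 29.2-fold that in AD CKO (log2 -4.87, SE 0.31, edgeR adjusted p = 2.25e-14). Crybb1, a crystallin gene that marks homeostatic microglia, had 25.3 and 24.7 CPM in AD CKO, 26.9 and 29.5 CPM in CKO, 73.8 and 70.8 CPM in AD WT, and 141 and 153 CPM in WT (log2 -2.56, SE 0.07, edgeR adjusted p = 3.99e-21). The 2 knockout groups lay close together here, below AD WT, and WT was the highest.

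Gpr165, an orphan receptor gene on the X chromosome, had 6.50 and 8.87 CPM in AD CKO against 78.8 and 84.8 CPM in WT (log2 -3.40, SE 0.11). Siglecg, an inhibitory receptor for sialic acids, had 1.88 and 2.51 CPM against 13.6 and 14.6 CPM (log2 -2.68, SE 0.19). Tnfrsf17, the receptor BCMA, fell by 2.60 on the log2 scale. Further falls among the 15 largest under these limits were those of the transcription factors Mycl (-2.45) and Hlf (-2.42), the zinc transporter Slc39a12 (-2.15), the C-type lectin receptor Clec4a3 (-2.14) and the kinase Stk26 (-2.14). Gprasp2, which sorts G protein-coupled receptors, differed by -3.01, Lypd6 by -2.95 and the delta-catenin gene Ctnnd2 by -2.60. Hba-a1, a haemoglobin gene, and Erdr1 also fell, by 3.34 and 3.27 on the log2 scale, and both have near-identical copies.

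**Figure D1:**
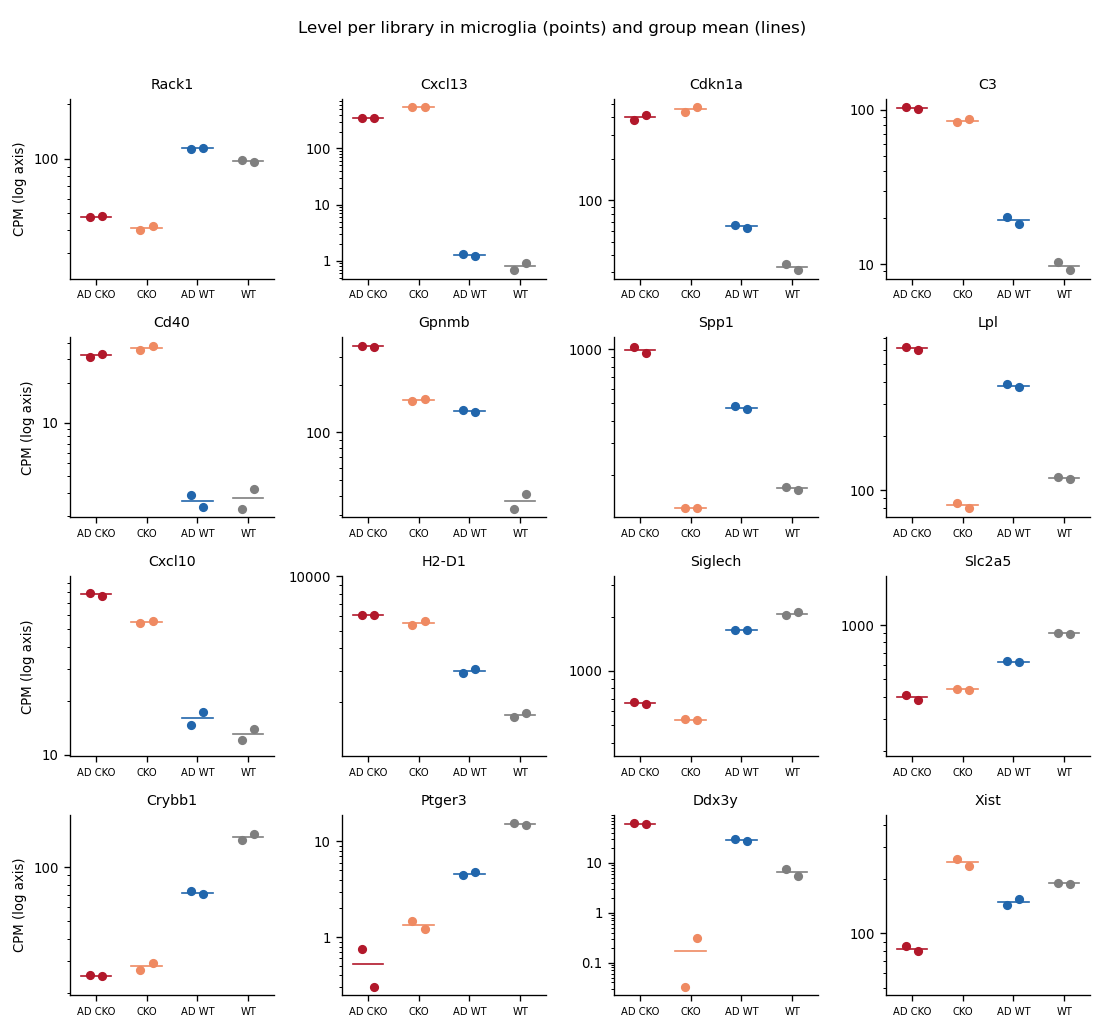
Level in CPM (logarithmic axis) of 16 genes in each of the 8 microglial libraries, with points for libraries and a line for the mean of each group in the order AD CKO, CKO, AD WT, WT. Cxcl13, Cdkn1a, C3 and Cd40 were high in both knockout groups, Gpnmb was highest in AD CKO, and Ptger3 was lowest in AD CKO.

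Gene lists are described below by how many tested members rose or fell and by their median log2 difference, to be read beside the 18.3%, 15.7% and -0.0037 of all genes. The medians of CKO against WT and of AD WT against WT are set beside it. These 3 comparisons share the same WT libraries, so likeness between them is no separate evidence. Over all genes the median was 0.0381 in CKO and -0.0169 in AD WT. Members outside the naming rule were chosen after their values were seen.

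Of 35 disease-associated microglia genes, 31 rose, 1 fell and 3 did not pass, with a median of 0.83, against 0.07 in CKO and 0.94 in AD WT. Spp1, which encodes the secreted protein osteopontin, had 1027 and 952 CPM in AD CKO, 132 and 132 CPM in CKO, 482 and 466.5 CPM in AD WT, and 172 and 166 CPM in WT (log2 2.55, SE 0.04, edgeR adjusted p = 3.57e-25). Lpl, lipoprotein lipase, had 625 and 600.5 CPM in AD CKO, 84.8 and 79.8 CPM in CKO, 389 and 373 CPM in AD WT, and 119 and 115 CPM in WT (log2 2.39, SE 0.05, edgeR adjusted p = 4e-24). For both genes AD CKO was the highest group and CKO the lowest. In CKO against WT, Spp1 fell by 0.36 and Lpl by 0.51 on the log2 scale.

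Apoe, the lipid carrier, had 16180 and 16100 CPM in AD CKO, 14930 and 15580 CPM in CKO, 9608 and 9757 CPM in AD WT, and 3341 and 3721 CPM in WT (log2 2.19, SE 0.04, edgeR adjusted p = 2.9e-15). Axl, a receptor for apoptotic cells, had 778 and 809 CPM in AD CKO against 183 and 187 CPM in WT (log2 2.10, SE 0.04). Trem2, the lipid-sensing receptor, had 2063 and 2226 CPM in AD CKO, 1718 and 1810 CPM in CKO, 1577 and 1572 CPM in AD WT, and 1109 and 1181 CPM in WT (log2 0.91, SE 0.04, edgeR adjusted p = 2.14e-15). Trem2 passed the test upward against each of the 3 other groups. Lyz2, a lysozyme gene with the near-identical copy Lyz1, rose by 2.62. The growth factor Igf1 rose by 2.47, the beta-glucan receptor Clec7a by 1.58, the cystatin Cst7 by 1.30 and the integrin Itgax by 1.19. Cst7 and Itgax were below their AD WT level, with 818 and 816 CPM in AD CKO against 1341 and 1319 CPM in AD WT for Cst7, and 129 and 130 CPM against 223 and 236 CPM for Itgax. The 1 member that fell was the chemokine Ccl6 (-0.20, SE 0.04), and without AD CKO replicate 2 the count that fell was 2. Tyrobp, the signalling partner of Trem2, did not pass (-0.04, SE 0.04), nor did the cathepsin Ctsl (-0.06, SE 0.03) and Cadm1 (-0.01, SE 0.05).

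Genes of lipid handling and of cholesterol synthesis rose in most cases. Of 22 lipid handling genes 15 rose and 3 fell (median 0.74, against 0.29 in CKO and 0.55 in AD WT). Ch25h, which makes 25-hydroxycholesterol, had 65.8 and 64.3 CPM in AD CKO, 11.2 and 14.3 CPM in CKO, 43.2 and 44.3 CPM in AD WT, and 14.1 and 16.2 CPM in WT (log2 2.10, SE 0.10, edgeR adjusted p = 7.44e-16). AD CKO was the highest group for Ch25h, and CKO and WT overlapped. The lysosomal acid lipase gene Lipa rose by 0.98. Of 22 genes of cholesterol synthesis and its regulation 17 rose and none fell (median 0.55, against 0.41 in CKO and 0.37 in AD WT). Cyp51, lanosterol demethylase, had 58.6 and 54.0 CPM in AD CKO against 23.1 and 25.7 CPM in WT (log2 1.20, SE 0.09, edgeR adjusted p = 7.45e-12). Msmo1, Dhcr7 and Sc5d, later enzymes of the pathway, rose by 0.84, 0.97 and 0.78.

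Of 35 lysosomal genes 19 rose and 7 fell (median 0.16, against -0.13 in CKO and 0.22 in AD WT). The proteases Ctsb and Ctsd each rose by 0.91 (SE 0.03) and the cholesterol carrier Npc2 by 0.79. Of 26 glycolysis and hypoxia genes 19 rose and 5 fell (median 0.47, against 0.13 and 0.37 in CKO and AD WT). Pkm, pyruvate kinase, had 1013 and 1019 CPM in AD CKO against 526 and 554 CPM in WT (log2 0.91, SE 0.04, edgeR adjusted p = 4.53e-17). The lactate transporter Slc16a3 rose by 1.36, the hypoxia factor Hif1a by 0.88 and the glycolytic enzyme Tpi1 by 0.71.

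**Figure D2:**
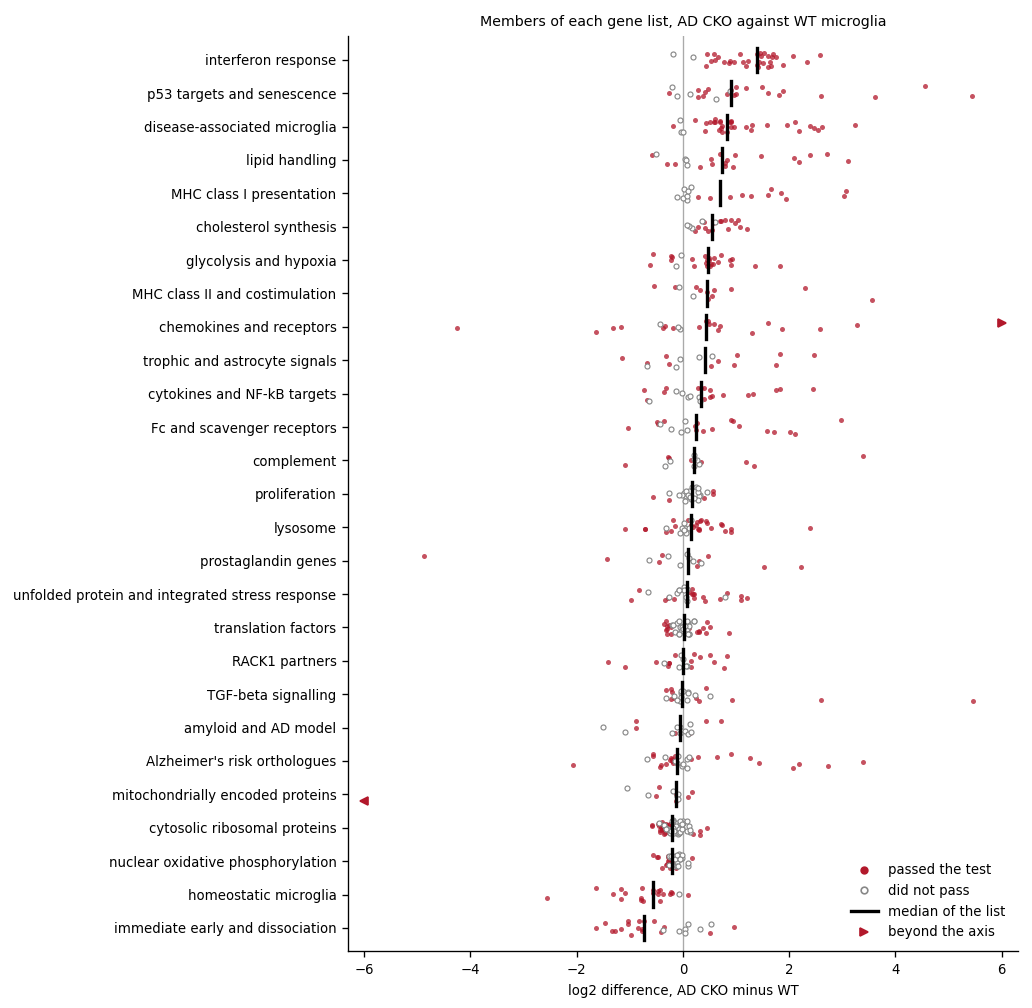
Log2 difference of AD CKO over WT (horizontal axis) for every tested member of the 27 pathway lists, with filled points for members that passed, open points for those that did not, and a black bar at each list's median. Triangles mark Cxcl13 and mt-Nd4l, which lie beyond the axis. The interferon response (median 1.40), p53 (0.91) and disease-associated (0.83) lists lie to the right of 0, and the immediate early (-0.73) and homeostatic (-0.56) lists to the left.

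The interferon response list had the highest median of the 27 pathway lists. Of its 35 genes 33 rose, none fell and 2 did not pass, with a median of 1.40, against 1.23 in CKO and 0.60 in AD WT. Cxcl10, an interferon-induced chemokine for T cells, had 79.6 and 76.6 CPM in AD CKO, 54.1 and 55.2 CPM in CKO, 14.6 and 17.4 CPM in AD WT, and 12.2 and 14.0 CPM in WT (log2 2.58, SE 0.09, edgeR adjusted p = 1.18e-18). AD CKO was the highest group and the knockout groups lay above both others. Oasl2, an antiviral gene of the oligoadenylate synthetase family, had 97.8 and 92.1 CPM in AD CKO, 105 and 105 CPM in CKO, 36.2 and 36.1 CPM in AD WT, and 18.6 and 19.1 CPM in WT (log2 2.33, SE 0.07, edgeR adjusted p = 2.77e-20). Here CKO was slightly above AD CKO. Ifit2 rose by 1.68 and Ifit3 by 1.70, of which Ifit3 has the close copy Ifit3b. Irf7, a transcription factor of the pathway, rose by 1.41. Mx2 (0.20, SE 0.17) and Gbp3 (-0.18, SE 0.10) did not pass, and without AD CKO replicate 1 the count that fell was 1. Ifnar1 and Ifnar2, which encode the type I interferon receptor and stand in the RACK1 partner list, rose by 0.51 and 0.59.

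The promoters of these genes are shown because the list moved together. The RefSeq table (GRCm38.p6) held 24 of the 35 genes, with at least 1 window a gene of 250 bases before a start and 50 after it. The core of the interferon-stimulated response element, spelled GAAA, any 2 bases, GAAA, or its reverse complement TTTC, any 2 bases, TTTC, was searched on both strands, and matches may overlap. It was present in at least 1 window of 17 of the 24 genes (70.8%), against 1079 of 27025 genes in the table (3.99%). Of the 23 matched genes that rose 16 held it, and Gbp3, which did not pass, held it too. Such a match is a description of letters in a window and not of binding. The stretches below run 5' to 3' on the gene's strand with 1 match of the core in capitals.
Cxcl10 (chr5:92349073-92349122, minus strand): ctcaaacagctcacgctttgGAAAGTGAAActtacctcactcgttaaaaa
Ifit3 (chr19:34583353-34583402, plus strand): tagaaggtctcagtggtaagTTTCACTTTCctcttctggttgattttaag
Ifit1 (chr19:34640784-34640833, plus strand): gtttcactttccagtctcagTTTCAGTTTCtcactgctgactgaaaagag
Rsad2 (chr12:26456543-26456592, minus strand): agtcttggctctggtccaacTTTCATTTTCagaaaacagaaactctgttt
Bst2 (chr8:71537567-71537616, minus strand): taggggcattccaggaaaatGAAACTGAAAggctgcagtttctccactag
Oas1a (chr5:120907526-120907559, minus strand): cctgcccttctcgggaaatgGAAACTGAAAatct
Oas3 (chr5:120777705-120777754, minus strand): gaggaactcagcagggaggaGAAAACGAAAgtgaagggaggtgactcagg
Slfn5 (chr11:82951927-82951976, plus strand): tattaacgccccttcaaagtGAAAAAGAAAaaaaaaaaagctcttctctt

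The capitals begin 213 bases before the annotated start in Cxcl10, 156 in Ifit3, 155 in Slfn5, 124 in Bst2, 120 in Rsad2, 85 in Ifit1, 75 in Oas3 and 14 in Oas1a. These genes rose in AD CKO by 2.58 (Cxcl10), 1.70 (Ifit3), 1.74 (Slfn5), 1.65 (Bst2), 1.61 (Rsad2), 1.47 (Ifit1), 1.66 (Oas3) and 1.53 (Oas1a) on the log2 scale. For cholesterol synthesis the sterol regulatory element, spelled TCAC, any base, CCAC, was searched in the same way. It was found for 1 of 16 matched genes (6.25%), against 388 of 27025 genes in the table (1.44%). That gene was Hmgcs1, an early synthase of the pathway, which rose by 0.41 and whose match in capitals begins 137 bases before the start.
Hmgcs1 (chr13:119690194-119690242, plus strand): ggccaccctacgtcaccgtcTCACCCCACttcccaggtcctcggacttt

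Antigen presentation rose in part. Of 18 genes of MHC class I presentation 11 rose and none fell (median 0.71, against 0.69 in CKO and 0.34 in AD WT). H2-D1, a classical class I gene, had 6091 and 6087 CPM in AD CKO, 5380 and 5674 CPM in CKO, 2918 and 3044 CPM in AD WT, and 1647 and 1749 CPM in WT (log2 1.84, SE 0.03, edgeR adjusted p = 4.48e-24). H2-K1 rose by 1.60, H2-Q6 by 3.03, the shared light chain B2m by 1.28 and the class I transactivator Nlrc5 by 1.95. The H2 genes are alike in sequence, so reads may be split between them. The immunoproteasome subunits Psmb8 (0.01, SE 0.05), Psmb9 (0.15, SE 0.07) and Psmb10 (-0.10, SE 0.07) did not pass. Of 13 genes of MHC class II and costimulation 9 rose and 2 fell (median 0.46, against 0.93 in CKO and -0.03 in AD WT), and the count that fell was 1 without AD CKO replicate 1 and without WT replicate 2. Cd274, the checkpoint ligand PD-L1, had 141 and 143 CPM in AD CKO, 92.8 and 94.3 CPM in CKO, 51.8 and 52.4 CPM in AD WT, and 29.0 and 28.6 CPM in WT (log2 2.30, SE 0.06, edgeR adjusted p = 2.32e-21). The invariant chain Cd74 rose by 0.48 and H2-Aa by 0.54, and both were higher in CKO, with 1410 and 1399 CPM for Cd74 in AD CKO against 1857 and 1993 CPM in CKO.

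Of 22 homeostatic microglia genes 20 fell and 1 rose (median -0.56, against -0.66 in CKO and -0.32 in AD WT). Siglech, a sialic acid receptor, had 672 and 657 CPM in AD CKO, 539 and 533 CPM in CKO, 1689 and 1696 CPM in AD WT, and 2046 and 2113 CPM in WT (log2 -1.65, SE 0.03, edgeR adjusted p = 1.71e-23). Cx3cr1, the fractalkine receptor, fell by 1.17, as did the sugar transporter Slc2a5. Csf1r, the receptor on which microglia depend, fell by 0.80, Tmem119 by 0.79 and the purinergic receptor P2ry12 by 0.47. P2ry12 had 4247 and 4015 CPM in AD CKO, 5041 and 5033 CPM in CKO, 3897 and 3791 CPM in AD WT, and 5689 and 5775 CPM in WT, so that the groups with the model were the lower ones. The count that rose was 0 under most alternatives, among them leaving out either AD CKO library or WT replicate 1. Sparc did not pass (-0.08, SE 0.03).

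Of 25 immediate early and dissociation genes 16 fell and 2 rose, with a median of -0.73, against -0.84 in CKO and 0.25 in AD WT. Egr1, an early-response transcription factor, had 219.6 and 227 CPM in AD CKO, 151 and 154.5 CPM in CKO, 694 and 661 CPM in AD WT, and 588 and 644 CPM in WT (log2 -1.46, SE 0.05, edgeR adjusted p = 8.43e-20). Klf2 fell by 1.34, Fos by 0.84 and Btg2 by 0.78. All 4 genes were lower in both knockout groups than in both others. Enzymatic or mechanical dissociation can raise such genes, and the part of cell handling in this difference was not tested. The 2 risers, Fosl2 and Egr3, lost their calls without AD CKO replicate 1 and without WT replicate 1, when the count was 0.

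Ribosomal protein genes shifted slightly. Of 79 cytosolic ribosomal protein genes 35 fell and 5 rose, with differences from -0.59 to 0.46 and a median of -0.20, against -0.29 in CKO and 0.24 in AD WT. Rps3, of the small subunit, had 149 and 153 CPM in AD CKO against 201 and 196 CPM in WT (log2 -0.39, SE 0.05, edgeR adjusted p = 1.62e-07). Rps4x fell by 0.42 and Rpl7 by 0.40. The count that fell was 21 without AD CKO replicate 1 and 18 without WT replicate 1. Of 42 translation factors 9 rose and 9 fell (median 0.01, against -0.09 and 0.01 in CKO and AD WT). Eif1a rose by 0.87, Eif5 by 0.52, Eif4g2 by 0.46 and Eif4g1 by 0.38, all factors of initiation, while the eIF3 subunits Eif3f (-0.32) and Eif3h (-0.36) fell.

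Of 46 nuclear genes of oxidative phosphorylation 24 fell and 1 rose, with a median of -0.21, against -0.25 in CKO and 0.07 in AD WT. Uqcrc1, of complex III, had 128 and 131 CPM in AD CKO against 185 and 195 CPM in WT (log2 -0.56, SE 0.05, edgeR adjusted p = 3.9e-10), and Ndufa9 (-0.47), Ndufs8 (-0.33) and Atp5c1 (-0.28) fell as well. The count that fell was 14 without AD CKO replicate 1. The 1 riser, Atp5j (0.17, SE 0.06), kept its call in few of the alternatives and lost it without AD CKO replicate 2 and without WT replicate 2. Of 13 mitochondrially encoded genes 2 rose and 5 fell (median -0.14, against 0.33 in CKO and 0.02 in AD WT). mt-Nd1 rose by 0.16, while mt-Nd6 (-0.45), mt-Nd3 (-0.50) and mt-Cytb (-0.14) fell. Those 3 falls lost their calls when 1 library was left out, mt-Nd6 without AD CKO replicate 1, mt-Nd3 without AD CKO replicate 2 or WT replicate 1, and mt-Cytb without AD CKO replicate 1 or WT replicate 1. Without AD CKO replicate 1, and without WT replicate 1, the count that fell was 1. Without AD CKO replicate 1, and without WT replicate 2, the count that rose was 1. mt-Nd4l, among the 5 that fell, is listed at 0 in both AD CKO libraries, against 2.13 and 0.925 CPM in WT. All tested genes with a symbol that begins with mt- together made up 0.896% and 0.895% of the TMM-scaled library size in AD CKO. These shares were 1.37% and 1.29% in CKO, 1.02% and 1.02% in AD WT, and 0.963% and 0.892% in WT.

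**Figure D3:**
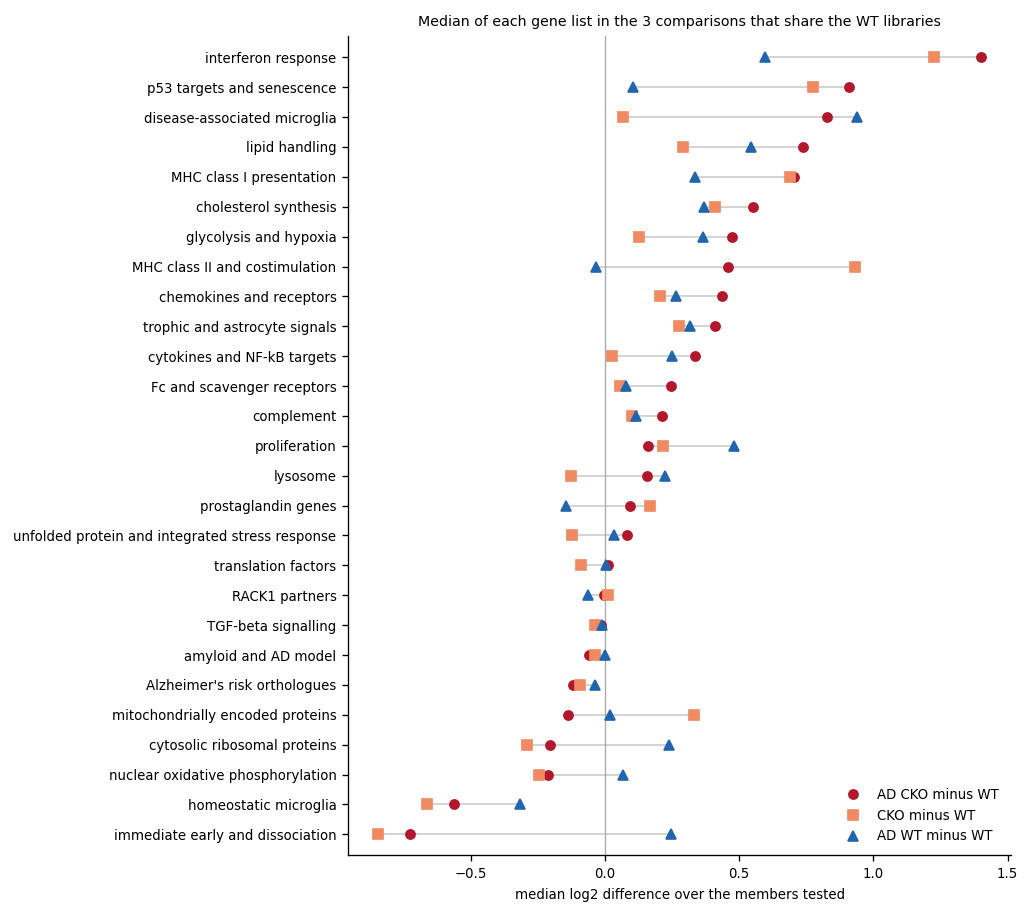
Median log2 difference over WT (horizontal axis) of each pathway list in AD CKO (red circles), CKO (orange squares) and AD WT (blue triangles), which share the WT libraries. The interferon list stands at 1.40, 1.23 and 0.60, the disease-associated list at 0.83, 0.07 and 0.94, and the immediate early list at -0.73, -0.84 and 0.25.

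Among secreted signals and their receptors, 13 of 23 chemokine genes rose and 7 fell (median 0.44, against 0.21 and 0.27 in CKO and AD WT). Beside Cxcl13 and Cxcl10, the membrane-bound chemokine Cxcl16 rose by 1.86, with 343 and 364 CPM in AD CKO, 272 and 292 CPM in CKO, 159 and 165 CPM in AD WT, and 99.4 and 95.1 CPM in WT. Cxcr4 had 13.9 and 16.3 CPM in AD CKO against 1.77 and 1.35 CPM in WT (log2 3.27, SE 0.20), with 11.9 and 11.2 CPM in CKO and 3.17 and 3.09 CPM in AD WT. Of 24 cytokine and NF-kB genes 13 rose and 4 fell (median 0.33, against 0.03 and 0.25). Tnf had 42.9 and 45.1 CPM in AD CKO, 29.4 and 31.8 CPM in CKO, 16.6 and 15.4 CPM in AD WT, and 13.3 and 12.6 CPM in WT (log2 1.76, SE 0.10, edgeR adjusted p = 2.07e-14). AD CKO was the highest group for Tnf. Relb and Nfkb2, of the alternative NF-kB pathway, rose by 1.32 and 1.22, and Cd14 by 0.55. Il1b, the inflammatory cytokine, fell by 0.74 and was lower in AD CKO than in each other group, with 30.1 and 29.1 CPM in AD CKO, 38.3 and 38.3 CPM in CKO, 58.3 and 62.9 CPM in AD WT, and 50.6 and 48.0 CPM in WT.

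Of 22 Fc and scavenger receptor genes 13 rose and 4 fell (median 0.25, against 0.06 in CKO and 0.08 in AD WT). Clec12a, an inhibitory lectin receptor, had 78.7 and 77.7 CPM in AD CKO, 85.3 and 83.6 CPM in CKO, 7.90 and 8.35 CPM in AD WT, and 10.3 and 9.64 CPM in WT (log2 2.97, SE 0.08, edgeR adjusted p = 5.63e-21). Tlr2 rose by 2.01 and the scavenger receptor Msr1 by 1.72, while Fcgr2b, the inhibitory Fc receptor, fell by 1.04. Of 15 complement genes 5 rose and 3 fell (median 0.21, against 0.10 and 0.11). Beside C3, its receptor C3ar1 rose by 1.18 and the C5a receptor C5ar1 by 1.34. Of the C1q genes, C1qb rose by 0.34, while C1qa (0.30, SE 0.14) and C1qc (-0.25, SE 0.11) did not pass.

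Of 25 p53 targets and senescence genes 19 rose and 1 fell (median 0.91, against 0.77 in CKO and 0.10 in AD WT), and the count that fell was 2 without AD CKO replicate 1. Beside Cdkn1a and Phlda3, Ccng1 had 262 and 253 CPM in AD CKO, 232 and 220.3 CPM in CKO, 80.4 and 79.4 CPM in AD WT, and 77.8 and 69.3 CPM in WT (log2 1.81, SE 0.05, edgeR adjusted p = 4.91e-20). The pro-apoptotic gene Bax rose by 0.91 and Trp53inp1 by 0.97. Mdm2, which targets p53 for breakdown, rose by 0.37. The knockout groups were the high ones for these genes. Of 28 proliferation genes 5 rose and 2 fell (median 0.16, against 0.22 and 0.48). Pcna, the DNA clamp that is also a p53 target, rose by 0.56 and Mcm7 fell by 0.56. Cdk1 (0.57) lost its call without AD CKO replicate 2 and without WT replicate 1, and Mcm6 (0.28) without AD CKO replicate 1. The counts were 3 risers without AD CKO replicate 1 and without WT replicate 1, and 1 faller without AD CKO replicate 1, AD CKO replicate 2, WT replicate 2 or either AD WT library.

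Of 16 prostaglandin genes 5 rose and 4 fell (median 0.09, against 0.17 in CKO and -0.15 in AD WT). The 2 E2 receptors Ptger3 and Ptger4 moved in opposite directions. Ptger4 had 47.5 and 43.3 CPM in AD CKO, 33.3 and 30.9 CPM in CKO, 22.5 and 24.5 CPM in AD WT, and 8.47 and 10.9 CPM in WT (log2 2.23, SE 0.11, edgeR adjusted p = 2.29e-15), with AD CKO the highest group. Hpgd, which breaks prostaglandins down, fell by 1.42, with 159 and 153 CPM in AD CKO, 79.0 and 78.6 CPM in CKO, 296 and 288 CPM in AD WT, and 422 and 415 CPM in WT. Hpgds, the synthase for prostaglandin D2, fell by 0.45.

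Of 24 TGF-beta signalling genes 6 rose and 5 fell (median -0.01, against -0.04 and -0.01), and the count that fell was 3 without WT replicate 2. Beside Gdf3, the receptors Acvrl1 (0.92) and Tgfbr2 (0.44) and the repressor Ski (0.30) rose, while Tgfb1 (-0.31) and Tgfbr1 (-0.22) fell. Of 21 reported RACK1 partners 8 rose and 7 fell (median -0.0037), or 5 and 4 without AD CKO replicate 1. Prkca, protein kinase C alpha, had 16.0 and 15.6 CPM in AD CKO against 38.9 and 44.9 CPM in WT (log2 -1.41, SE 0.10, edgeR adjusted p = 4.79e-12), and the Src-family kinase Fyn rose by 0.82. Of 29 genes of the unfolded protein and integrated stress responses 13 rose and 5 fell (median 0.08, against -0.12 and 0.03). Xbp1 had 763.5 and 730.3 CPM in AD CKO, 655 and 685 CPM in CKO, 269 and 266 CPM in AD WT, and 319 and 325.5 CPM in WT (log2 1.21, SE 0.04, edgeR adjusted p = 3.73e-19). The serine synthesis genes Psat1 (0.83) and Phgdh (-0.83) moved apart, and Atf3 fell by 0.98.

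Of 34 orthologues of Alzheimer's risk genes 10 rose and 14 fell (median -0.12, against -0.09 and -0.04), and the count that fell was 9 without AD CKO replicate 2. Lilrb4a, an inhibitory receptor, had 479 and 444 CPM in AD CKO, 267 and 266 CPM in CKO, 168 and 162 CPM in AD WT, and 70.3 and 69.5 CPM in WT (log2 2.72, SE 0.05, edgeR adjusted p = 7.33e-25). Cass4 fell by 2.07, with 12.4 and 12.6 CPM in AD CKO against 49.2 and 55.6 CPM in WT. Of 16 amyloid genes 3 rose and 3 fell (median -0.06, against -0.04 and 0.00). Aplp2 rose by 0.71 and the presenilin Psen2 by 0.43, while Aplp1 (-0.89) and Mapt (-0.89) fell. Of 16 trophic and astrocyte-directed signals 7 rose and 4 fell (median 0.41, against 0.28 and 0.32). Csf1 rose by 0.95 and Vegfa by 1.82, while Gas6, a ligand of Axl, fell by 0.68.

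AD CKO microglia were higher than each of the WT, CKO and AD WT groups for 411 genes (2.37%) and lower than each for 347 (2%), by edgeR tests against each. Of these, 385 and 187 had a mean of at least 5 CPM and a named gene symbol. Gpnmb, a transmembrane glycoprotein of the lysosome and plaque response, had 352 and 343 CPM in AD CKO, 157 and 162 CPM in CKO, 139 and 134 CPM in AD WT, and 32.8 and 41.0 CPM in WT. Its log2 difference was 3.24 against WT (SE 0.07, edgeR adjusted p = 7.28e-16), 1.12 against CKO and 1.35 against AD WT. Mmp12, macrophage elastase, had 79.0 and 75.5 CPM in AD CKO, 33.5 and 28.8 CPM in CKO, 21.1 and 19.5 CPM in AD WT, and 14.0 and 13.1 CPM in WT (log2 2.51, SE 0.09, edgeR adjusted p = 2.68e-18). Both were intermediate in the single groups and lowest in WT.

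Pianp, whose protein binds the inhibitory receptor PILR-alpha, had 58.9 and 74.5 CPM in AD CKO, 29.2 and 30.7 CPM in CKO, 29.5 and 30.2 CPM in AD WT, and 6.15 and 9.02 CPM in WT (log2 3.14, SE 0.16). Klk1b22, a kallikrein gene with many near-identical relatives, had 9.48 and 9.11 CPM in AD CKO and between 1.99 and 3.33 CPM in every other library (log2 1.58, SE 0.22). Gpnmb, Mmp12, Pianp, Klk1b22 and the Y-linked Eif2s3y, Kdm5d, Ddx3y and Uty were the 8 ranked first by the smallest of their 3 differences, and not by the difference from WT, which was larger for Ikbke (4.90) and other genes that stood apart. Among the lists, 9 of 35 disease-associated, 7 of 22 Fc and scavenger receptor, 7 of 26 glycolysis and hypoxia and 6 of 22 lipid handling genes stood above all 3 groups. Over all genes this share was 2.37%. Against AD WT alone, 12 disease-associated genes were higher in AD CKO and 14 were lower. For glycolysis and hypoxia these counts were 7 and 8, for Fc and scavenger receptors 13 and 4, and for lipid handling 12 and 6.

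On the low side, Ermn, a cytoskeletal protein gene of myelin-forming oligodendrocytes, had 2.98 and 1.73 CPM in AD CKO, 13.4 and 11.7 CPM in CKO, 5.99 and 5.05 CPM in AD WT, and 7.96 and 9.21 CPM in WT (log2 -1.88, SE 0.21). The CKO libraries were the highest. Gpr37l1 (-1.14), Ctnnd2 (-2.60), Ptger3, Hba-a1, Erdr1 and Tsix (-1.51) also stood below all 3 groups. Tsix is antisense to Xist, and the strand of counting is not stated in the sources used here.

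**Figure D4:**
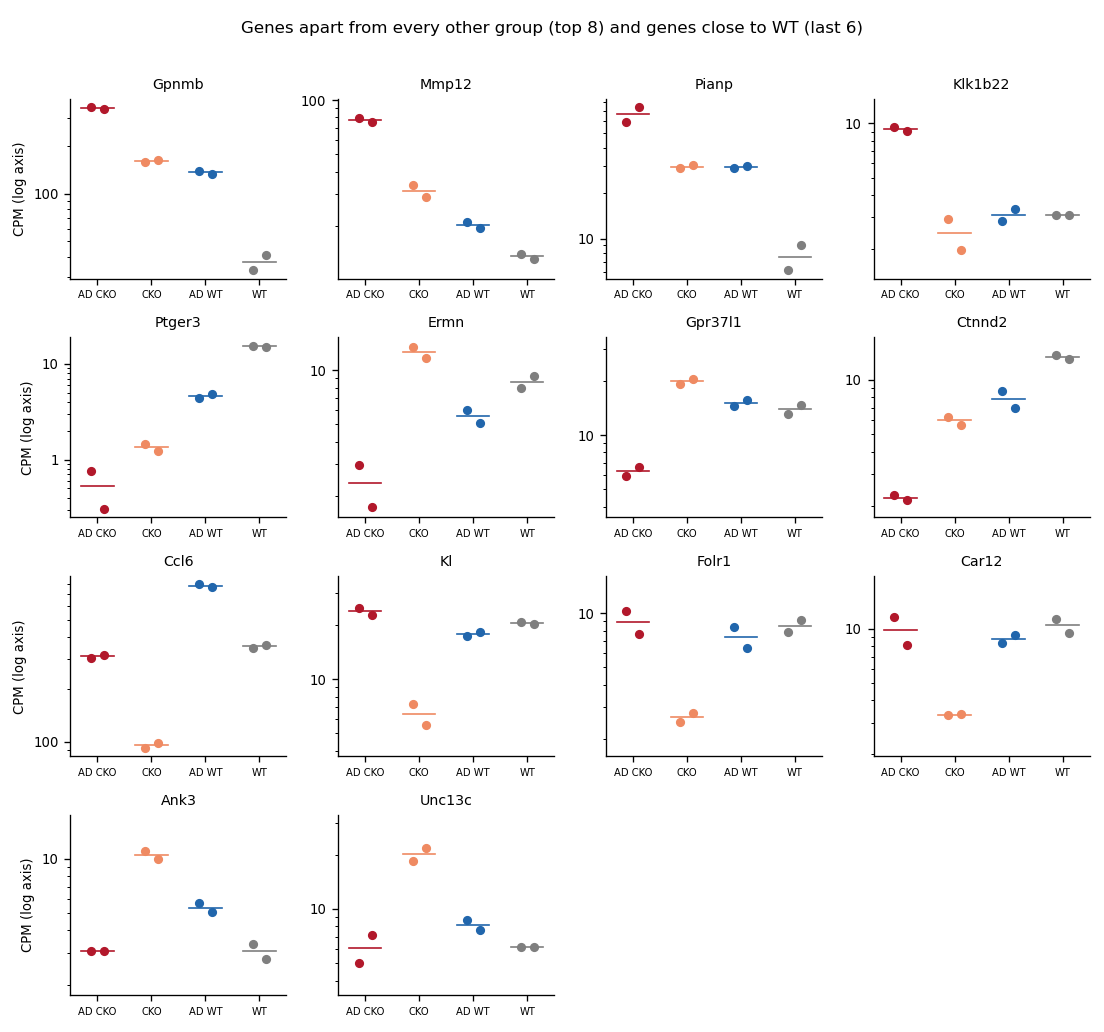
Level in CPM (logarithmic axis) in each library, with group means as lines, of 8 genes that stood apart in AD CKO from all other groups and of 6 genes that were close to WT in AD CKO and not in CKO. Gpnmb was at 352 and 343 CPM in AD CKO and at 162 CPM or less elsewhere, while Ccl6 was at 304 and 313 CPM in AD CKO and at 345 and 361 CPM in WT.

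The interaction, that is the AD CKO difference from WT minus the sum of the CKO and AD WT differences, was positive for 957 genes (5.53%) and negative for 1245 (7.19%) by edgeR. A further pattern concerned genes near their WT level in AD CKO. Of the 17318 genes tested, 1103 passed in CKO against WT and in the opposite direction in AD CKO against CKO. The shared CKO libraries favour such a count. For 558 of these 1103 genes the 95% interval of the AD CKO difference from WT lay within 0.5 on the log2 scale. Ccl6 had 304 and 313 CPM in AD CKO, 92.2 and 99.1 CPM in CKO, 797 and 774 CPM in AD WT, and 345 and 361 CPM in WT. Its difference from WT was small but passed (-0.20, 95% interval -0.29 to -0.11, edgeR adjusted p = 0.000822).

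The other 5 named genes of this kind did not pass against WT. Kl, the gene of the choroid plexus protein klotho, had 24.9 and 22.7 CPM in AD CKO, 7.27 and 5.58 CPM in CKO, 17.4 and 18.4 CPM in AD WT, and 20.9 and 20.3 CPM in WT (log2 0.21, 95% interval -0.03 to 0.44). Folr1, a folate receptor, differed from WT by 0.08 (-0.29 to 0.45) and the carbonic anhydrase Car12 by -0.09 (-0.44 to 0.26). All 3 were low in CKO, and Kl and Folr1 are in the choroid marker list. Ank3, ankyrin G, differed by 0.0021 (-0.42 to 0.43) and the synaptic priming factor Unc13c by 0.0028 (-0.35 to 0.35), and both were high in CKO, with 5.03 and 7.17 CPM for Unc13c in AD CKO against 18.4 and 21.9 CPM in CKO.

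Markers of other cell types also differed between the groups, and their part in the results above was not tested. All 10 oligodendrocyte markers fell, with a summed level of 2268 and 2319 CPM in AD CKO, 8238 and 8631 CPM in CKO, 3759 and 3761 CPM in AD WT, and 3152 and 3294 CPM in WT (median log2 -1.16). Mbp fell by 0.44, Mobp by 0.50 and Cnp by 0.61. Of 10 astrocyte markers 5 fell and 1 rose (sums 317 and 311 CPM in AD CKO against 335 and 338.5 CPM in WT). The riser was Gfap, with 104 and 101 CPM in AD CKO, 29.0 and 29.7 CPM in CKO, 110.2 and 116.5 CPM in AD WT, and 15.6 and 16.7 CPM in WT, while Slc1a3, Gja1 and Aldoc fell by 0.62, 1.17 and 0.62. Of 12 neuronal markers 1 rose (Map2, 1.18) and 1 fell (Camk2a, -1.40), or 2 without AD CKO replicate 1. The sums of all 12 were 27.6 and 21.6 CPM in AD CKO against 24.1 and 22.3 CPM in WT. They were highest in CKO, at 50.1 and 48.1 CPM, and were 27.7 and 26.4 CPM in AD WT. Of 7 oligodendrocyte precursor markers 4 fell, among them Olig1 (-1.41), Sox10 (-2.18) and Vcan (-2.33), and Cspg4 rose by 2.31 and carried the sum (48.6 and 59.1 CPM in AD CKO against 19.8 and 23.1 CPM in WT). Vcan lost its call without AD CKO replicate 2 and without WT replicate 2.

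Of 10 border macrophage and monocyte markers 3 rose, Ms4a7 (3.40), Mrc1 (1.05) and Ly6c2 (0.81), and 2 fell, Ccr2 (-0.34) and Plac8 (-0.87). The sums of all 10 were 443 and 434 CPM in AD CKO, 566 and 561 CPM in CKO, 212 and 214 CPM in AD WT, and 253 and 247 CPM in WT. The count that fell was 1 without AD CKO replicate 2 and 0 without WT replicate 1. Cd163, Lyve1, Pf4, Cbr2 and F13a1, defining markers of that class, did not pass, at -0.22, -0.18, 0.16, -0.37 and 0.09 (SE 0.11, 0.15, 0.11, 0.15 and 0.07). Of 10 endothelial markers 5 rose and 1 fell (sums 560 and 555 CPM in AD CKO against 471 and 475 CPM in WT), with Flt1 at 0.68, Kdr at 0.52, Tek at 0.34 and Ly6c1 at 0.25, and the faller, Vwf (-0.33), lost its call without WT replicate 2. Of 9 mural markers 1 rose, Rgs5 (0.21), which lost its call without AD CKO replicate 2 and without WT replicate 2, and the sums were 238 and 238 CPM against 221 and 226 CPM.

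None of 7 fibroblast markers passed (sums 10.6 and 12.5 CPM in AD CKO against 11.1 and 11.7 CPM in WT). Of 8 ependymal and choroid markers 1 fell, Ttr (-0.25), with sums of 756 and 800.5 CPM in AD CKO, 401 and 402 CPM in CKO, 686 and 687 CPM in AD WT and 933 and 897 CPM in WT. Of 9 neutrophil markers 3 rose, Ngp (0.54), Ltf (0.60) and Ly6g (1.21), and the sums of all 9 were 302 and 313 CPM in AD CKO, 677 and 681.5 CPM in CKO, 475 and 475 CPM in AD WT, and 266.5 and 251 CPM in WT. Ly6g lost its call without WT replicate 2, where 1 other marker fell. Of 11 lymphocyte markers 4 rose and 1 fell, Cd79b (-0.95), and no marker that rose was above 3.63 CPM in an AD CKO library. The sums of all 11 were lower in AD CKO (19.4 and 21.3 CPM) than in WT (28.5 and 27.8 CPM). They were 24.2 and 20.3 CPM in CKO and 23.2 and 20.8 CPM in AD WT. The risers were the T-cell genes Cd3e, Cd8a, Cd4 and Trbc2, at or near 0 in WT except for Cd4, and the count was 2 without either AD CKO library and 1 without WT replicate 1. All 4 haemoglobin genes fell, with sums of 1.71 and 2.36 CPM in AD CKO, 10.3 and 10.7 CPM in CKO, 11.8 and 10.9 CPM in AD WT, and 23.9 and 18.0 CPM in WT.

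**Figure D5:**
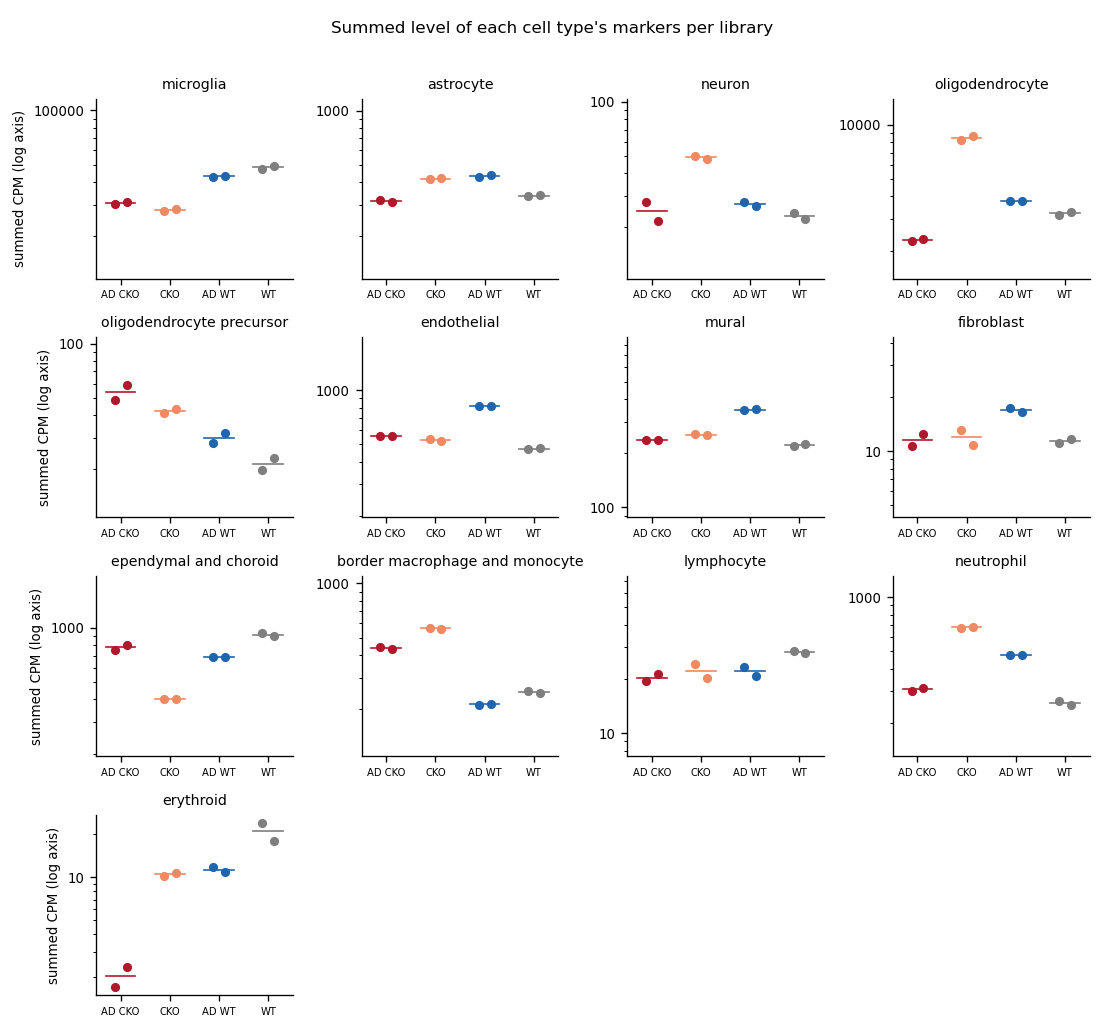
Summed level in CPM (logarithmic axis) of the tested members of 13 cell type marker lists in each library, in the order AD CKO, CKO, AD WT, WT. The microglia sum was 27460 CPM or more in every library. The oligodendrocyte sum was lowest in AD CKO (2268 and 2319 CPM) and highest in CKO. Sums of different lists cannot be compared with each other.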

How the data were processed

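RNA from mouse microglia was sequenced after SMART-Seq amplification, per the labels' protocols. The deposited table holds unscaled expected counts for each gene, as estimated by the authors. Between 26.99% and 33.56% of non-zero values per library were fractional. The authors used fastp, HISAT2, StringTie and build mm10, per the submitters' processing notes, and the counting step is not given in the sources used here. Library totals were 27741882 to 33933068, and for low genes these counts limit precision. All 8 microglial columns were assigned by name to 4 groups of 2, and the astrocyte table was not used here.

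Rounded values were then analysed with edgeR 4.0.16 under R 4.3.3 (filterByExpr, TMM, robust quasi-likelihood, 2-sided, group means, no block), with a common biological coefficient of variation of 0.0678. SE and 95% intervals come from the fit. DESeq2 1.42.0, limma 3.58.1 (voom), RLE factors, other filters, the 4 compared libraries alone, a replicate block, each library left out and, added after seeing the data, the sex chromosomes left out were alternatives. The test was tried on simulated data.

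Named genes are Rack1, the 15 largest rises and falls past the threshold at a mean of 5 CPM or more with groups apart, up to 4 members per list by p, 8 per direction apart from every other group, and 6 near WT, without clone-like names. Some genes that the rule names are not reported here. The members and lists were chosen with earlier results of these data known. Coordinates are from GENCODE M21, which matched 52133 of 55414 features (94.08%), and promoters are from RefSeq. For symbols with 2 identifiers the one with the larger mean was used. Libraries of a group correlated at 0.985 to 0.9863 across genes, which are not independent replicates, and differed by more than counting error (chi-square per degree of freedom 3.625 to 6.156).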

Additional observations from a re-analysis of the deposited data

Results flagged for a closer look

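For 19 named genes the log2 effect of the AD model differed between microglia with the Rack1 knockout (AD CKO against CKO) and those without it (AD WT against WT), by edgeR's interaction test. The value given is the first effect minus the second. Among genes that stood apart in AD CKO the difference was 1.91 for Klk1b22, whose effects were 1.91 with the knockout and -5e-04 without it, and 0.73 for Mmp12, whose effects were 1.31 and 0.58. For Pianp it was -0.82 (1.16 with the knockout, 1.98 without) and for Gpnmb -0.76 (1.12 and 1.88), so the effects of the model were in the same direction and smaller with the knockout. The Y-linked genes had 4.94 (Eif2s3y), 3.13 (Kdm5d), 6.32 (Ddx3y) and 5.59 (Uty). Erdr1 had -1.50 and Tsix -1.06. For the glial genes Ermn and Gpr37l1 the values were -1.79 and -1.77, and for Hba-a1 -1.35. Among genes near WT in AD CKO they were 0.54 (Ccl6), -2.56 (Ank3), -2.13 (Unc13c), 1.96 (Folr1), 2.09 (Kl) and 1.81 (Car12). All 19 genes were chosen on comparisons that enter the interaction, the first 13 for standing apart in AD CKO and the last 6 on CKO against WT and AD CKO against CKO, so these values are a description and not an independent test.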

How the results depend on the processing

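The 4 counts of genes higher or lower in AD CKO than in WT, at any size and at 2-fold or more, stayed within 1.5 times their value under the 16 alternatives. So did the counts of genes apart from every other group under the alternatives run for them, which leave out DESeq2, voom and the compared groups alone. The replicate block gave 3309 genes higher and 2875 lower, and the replicate numbers were not taken as pairs, since the labels tie them to nothing shared and a group has only 2 (correlation of deviations between same-numbered AD CKO and WT libraries 0.1144). Over the settings run for each, the counts ranged from 2526 to 3309 higher and from 2181 to 2875 lower, and genes apart from every other group from 285 to 494 higher and from 244 to 390 lower. DESeq2 called 2730 higher and 2477 lower, and 7251 genes had an unadjusted p under 0.05 in edgeR. Of 2802 values of 176 named genes, 2758 kept direction and call, 23 lost the call and 21 changed sign. The sign changes were in genes near 0. For the log2 fold change of Ank3 they were -0.0056 with RLE factors and with DESeq2, -0.0155 with the 1 CPM filter, -2e-04 with no filter and -0.0063 with the compared groups alone, and -0.1291 to 0.1538 with single libraries left out. For the log2 fold change of Unc13c they were -0.0055 with RLE factors, -0.007 with DESeq2, -0.0101 with voom, -0.0148 with the 1 CPM filter, -0.0076 with the compared groups alone and -0.0068 with the replicate block, and -0.2778 to 0.2291 with single libraries left out. With single libraries left out the log2 fold change of Folr1 ran from -0.1461 to 0.2803 and the log2 fold change of Car12 from -0.3688 to 0.149. The causes were not tested. Calls of 11 named genes were lost somewhere, among them Rgs5 (edgeR adjusted p = 0.0508 with the 1 CPM filter, 0.0694 with the compared groups alone and 0.0764 by DESeq2). With the 1 CPM filter, which leaves out genes with fewer counts, 1 lymphocyte marker rose in place of 4. Genes under 1 CPM rest on few counts, and 2 libraries a group limit what can be shown for them. For 103 genes no SE could be had, since a group had no read.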
